A study of Mus musculus with 9 samples.

Results

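The chemokines and their receptors were taken as the protein-coding mouse genes with a Ccl, Cxcl, Cx3cl1, Cx3cr1, Xcl1, Xcr1, Ccr, Cxcr or Ackr symbol. The rule gave 59 genes of 47069 counted, 37 ligands and 22 receptors. Cxcl11, annotated as a polymorphic pseudogene, and a pair of Ccl19 pseudogenes bear matching symbols but are not protein-coding and were left out. RNA had been sequenced in bulk from frozen tissue of C57BL/6 mice of about 9 to 10 months. The libraries came from 3 distal metastases, 3 proximal metastases of the epididymal fat and 3 primary prostate tumours. The distal site is named as diaphragm in one label and as lung in another, so only "distal" is used here. All 9 libraries share the same genotype. Among its engineered alleles it has a deletion of exon 3 in 1 Ctnnb1 allele, which leaves a beta-catenin that resists degradation. The labels mark this allele with the prefix pc, which they do not spell out, and the driver of the deletion is not given in the sources used here. There were therefore no wild-type samples. The samples were matched within 3 mice, but which samples share a mouse is not stated, and all comparisons are unpaired.

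Chemokines are small secreted proteins that bind G protein-coupled receptors on leukocytes and other cells and direct their migration along concentration gradients. They are classed as CXC, CC, CX3C and XC by the spacing of their first cysteines. CXC chemokines with a glutamate-leucine-arginine (ELR) motif attract neutrophils, mainly through Cxcr2. Atypical receptors (Ackr) bind chemokines without the usual G protein signalling and take them up or scavenge them. In solid tumours both tumour cells and the cells around them produce chemokines, and the pathway is best known there for recruiting myeloid and lymphoid cells.

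The libraries held 28334730 to 40408723 counts. Levels are given as CPM, that is, counts scaled to a common library size with TMM factors (trimmed mean of M values). The scaling factor was 0.7956 in primary 2 and 0.9943 to 1.048 elsewhere. Over the tested members, the median SD of log2(CPM + 0.5) was 0.41 among distal, 0.403 among proximal and 0.705 among primary libraries. Over all tested genes it was 0.138, 0.144 and 0.492 in the same order. The primary tumours thus varied more among themselves than the metastases did. Epithelial marker genes summed to 2605 to 2739 CPM in distal and 1930 to 2905 CPM in proximal libraries, against 2818, 12830 and 6644 CPM in primary 1, 2 and 3. Seminal vesicle genes summed to 10550 CPM in primary 3, whereas no other library exceeded 27.18 CPM. Skeletal muscle genes summed to 7.168, 525.7 and 765.8 CPM in distal 1, 2 and 3, against 2.645 to 7.214 CPM in the other 6 libraries. Adipocyte genes summed to 32.34 to 210.5 CPM in distal and 70.1 to 214.0 CPM in proximal libraries, against 50.54 to 154.7 CPM in primary libraries. Sftpc, a surfactant gene of lung alveoli, stood at 0.0749, 0 and 0.0666 CPM in distal libraries. Pbsn, the prostate secretory protein probasin, stood at 0 to 0.025 CPM in distal and 0.0733 to 0.887 CPM in proximal libraries, against 0.483, 211 and 11.8 CPM in the primary libraries. Both genes were added outside the naming rule.

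Of the 59 members, 48 had enough counts to be tested, 30 ligands and 18 receptors. Ccl21b, Ccl26 and Ccl27b had no count in any library. Another 8 (Ccl1, Ccl19, Cxcl17, Xcl1, Ccr3, Ccr4, Ccr8 and Cxcr1) had at most 45 counts in a library. A mean of at least 2 CPM in some group was reached by 26 members, 10 CPM by 13, and 100 CPM by 2, the ligand Cxcl14 and the atypical receptor Ackr3. Ranked by CPM per kilobase of exon, averaged over the 9 libraries, Cxcl14 came first at 289, followed by Ackr3 at 36.7, Ccl6 at 19.0, Ccl8 at 11.4, Cxcr4 at 11, Cxcl16 at 10.1 and Cx3cl1 at 9.91. Cxcl14 alone made up 54.7% to 70.5% of the summed member CPM in distal and 47.0% to 78.9% in proximal libraries, against 55.3%, 16.7% and 34.3% in primary 1, 2 and 3. Without Cxcl14, the ligands summed to 98.2, 114.6 and 209.8 CPM in distal 1, 2 and 3 and to 83.74, 160.9 and 96.43 CPM in proximal 1, 2 and 3, against 244.8, 356.3 and 385.0 CPM in primary 1, 2 and 3. These ligand sums were higher in each primary tumour than in any metastasis.

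**Figure D1:**
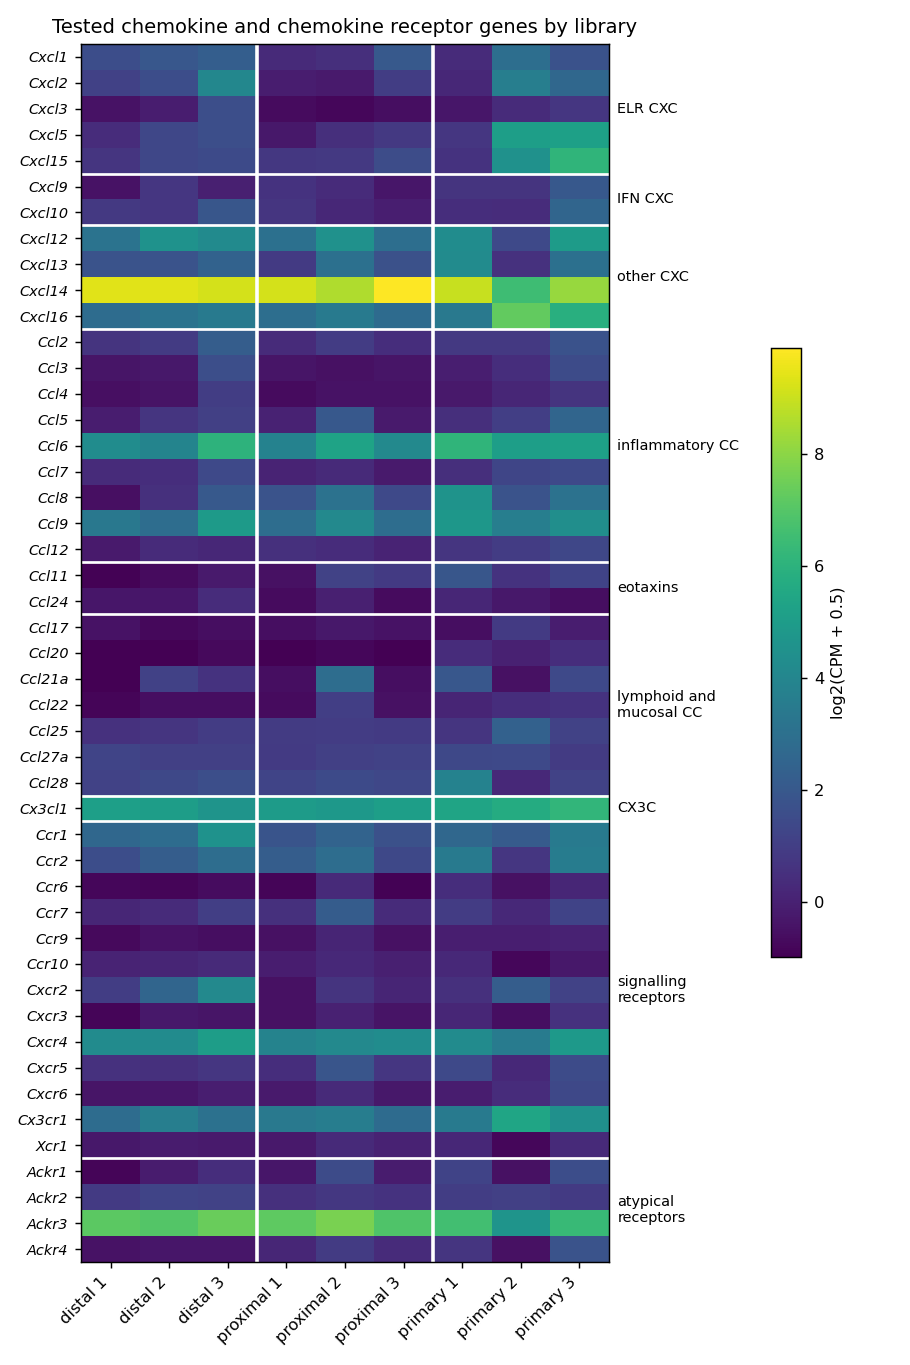
Levels of 47 of the 48 tested members, as log2(CPM + 0.5), in rows by role and in columns by library (distal, proximal, primary; white lines separate groups). Cxcl14 and Ackr3 are the brightest rows in all libraries except primary 2, Cxcl5, Cxcl15 and Cxcl16 are bright in primary 2 and 3, and distal 3 holds the highest level of Cxcl2, Ccl3, Ccl4, Ccr1 and Cxcr2.

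The metastases were compared with the primary tumours to ask which chemokine signals differ between a tumour in the prostate and its spread. With both metastatic sites averaged and set against the primary tumours, 4 of the 48 tested members passed the test, and all 4 were lower in the metastases. They were the ligands Cxcl5, Cxcl15, Cxcl16 and Ccl20. No receptor passed. The test was edgeR's quasi-likelihood F-test on all 9 libraries, and a gene was called where its p, adjusted over 18204 genes by Benjamini-Hochberg, was below 0.05. It called 3.71% of all tested genes, 3.68% lower and 0.033% higher. Of the 48 members, 43 had a negative and 5 a positive log2 fold change (beside 52.6% and 47.4% of all tested genes), with a median of -1.0, against -0.04 for all tested genes. In bulk tissue, fewer cells of a type and less RNA per cell cannot be told apart. All 4 calls were lost when any 1 library other than primary 1 was left out (0 of 48 to 50 members called). Without primary 1, 13 of 50 tested members passed, when the same fit called 34.8% of all tested genes.

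Within each site the same test called no member. Against primary, distal metastases had 0 of 48 members called, beside 0.0879% of all tested genes, and proximal metastases had 0 of 48, beside 0.0494%. At an unadjusted p below 0.05 the members numbered 15 in distal and 11 in proximal metastases, which is 31.2% and 22.9% of them, beside 17.4% and 18.2% of all tested genes. DESeq2 called 7 members in distal and 4 in proximal metastases, all lower, beside 7.93% and 8.19% of all tested genes, and limma-voom called 0 in both, beside 0.00549% in each. Both comparisons use the same 3 primary tumours. The median log2 fold change of the members was -0.76 in distal and -0.90 in proximal metastases, against -0.03 and -0.05 for all tested genes. Groups that did not overlap were found for 9 members in distal metastases (2 higher, 7 lower, beside 8.4% and 10.4% of all tested genes) and for 10 in proximal metastases (1 higher, 9 lower, beside 8.68% and 10.7%).

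The ELR ligands lie together on chromosome 5, between 90759360 and 90905938 (GRCm38, GENCODE M21), in the order Cxcl5, Cxcl3, Cxcl15, Cxcl1 and Cxcl2. NF-kB is a textbook regulator of several of these genes, so the 250 bases before the RefSeq start (GRCm38.p6) were searched for the kB consensus on both strands. The windows of 45 of the 59 members were matched by symbol. Counting a gene once where any of its windows matched, the consensus was found in 9 of them (20%), beside 4.46% of the 27025 genes with a window of the same length. By single windows it was in 9 of 52 (17.3%), beside 3.9% of 32851. Cxcl5 and Cxcl16 had no window, so of the called ligands only Cxcl15 and Ccl20 were searched. The windows of 4 of the cluster's genes are shown because its neighbours differ in this feature, and that of Ccl20, a gene that passed the test, because it holds a match too. Capitals mark the bases covered by a kB match. In Cxcl1, Cxcl2 and Cxcl3 these are 2 overlapping matches, 1 on each strand.
Cxcl1 (chr5:90890995-90891244, plus strand): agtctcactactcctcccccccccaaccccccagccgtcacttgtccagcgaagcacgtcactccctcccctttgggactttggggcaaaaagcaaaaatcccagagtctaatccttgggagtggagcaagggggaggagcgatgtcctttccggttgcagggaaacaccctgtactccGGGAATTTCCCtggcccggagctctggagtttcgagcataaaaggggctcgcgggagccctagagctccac
Cxcl2 (chr5:90903649-90903898, plus strand): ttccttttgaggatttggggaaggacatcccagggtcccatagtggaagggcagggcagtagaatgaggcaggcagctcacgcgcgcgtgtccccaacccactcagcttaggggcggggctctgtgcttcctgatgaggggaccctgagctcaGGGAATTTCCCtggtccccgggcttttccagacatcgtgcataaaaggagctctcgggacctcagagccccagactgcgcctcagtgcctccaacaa
Cxcl3 (chr5:90785851-90786100, plus strand): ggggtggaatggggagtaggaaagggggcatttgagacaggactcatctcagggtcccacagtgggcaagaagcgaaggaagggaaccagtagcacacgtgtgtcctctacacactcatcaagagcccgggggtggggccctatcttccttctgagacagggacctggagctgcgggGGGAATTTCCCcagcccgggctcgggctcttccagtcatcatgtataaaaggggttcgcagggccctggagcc
Cxcl15 (chr5:90794284-90794533, plus strand): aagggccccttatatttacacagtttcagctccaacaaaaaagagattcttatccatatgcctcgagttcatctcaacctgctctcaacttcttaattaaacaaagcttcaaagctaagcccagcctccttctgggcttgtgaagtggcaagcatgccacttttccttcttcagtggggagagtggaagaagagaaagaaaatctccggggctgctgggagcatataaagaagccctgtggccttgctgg
Ccl20 (chr1:83116516-83116765, plus strand): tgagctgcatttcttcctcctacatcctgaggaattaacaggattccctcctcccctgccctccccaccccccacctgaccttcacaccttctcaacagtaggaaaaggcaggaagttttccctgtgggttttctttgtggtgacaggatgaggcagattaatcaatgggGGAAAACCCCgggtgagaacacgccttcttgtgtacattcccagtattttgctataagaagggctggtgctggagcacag
The matches began 71, 97, 73 and 80 bases before the start in Cxcl1, Cxcl2, Cxcl3 and Ccl20. The window of Cxcl15 held no match. Cxcl3 and Cxcl15 held TATAAA on the gene strand, as 12 of the 45 members did (26.7%, beside 8.94% of all genes with a window). A match describes letters in these windows and is not a site of binding.

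Cxcl5, an ELR ligand of neutrophils (chromosome 5, 90759360 to 90761624), stood at 0.799, 1.998 and 2.53 CPM in distal 1, 2 and 3 and at 0.313, 0.867 and 1.27 CPM in proximal 1, 2 and 3, against 1.15, 33.5 and 35.6 CPM in primary 1, 2 and 3. Primary 2 and 3 lay far above every metastasis, whereas primary 1 lay among them. The log2 fold change of metastases over primary was -4.28 (SE 0.88, edgeR adjusted p = 0.0425). Cxcl15, an ELR ligand first described in mouse lung epithelium (chromosome 5, 90794534 to 90803067), stood at 1.099, 1.998 and 2.198 CPM in distal libraries and 1.2, 1.25 and 2.42 CPM in proximal libraries, against 1.02, 22.2 and 68.9 CPM in primary libraries. As for Cxcl5, primary 2 and 3 were high, and primary 1 lay below all 6 metastases. Here the log2 fold change was -4.18 (SE 0.91, edgeR adjusted p = 0.0494). Cxcl5 and Cxcl15 differed by 1.11 (SE 1.06) and 0.12 (SE 1.08) on the log2 scale in distal over proximal metastases (both edgeR adjusted p = 1.0).

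The other ELR ligands did not pass in any comparison. Cxcl1 stood at 2.45, 3.40 and 4.33 CPM in distal libraries and 0.730, 0.867 and 3.62 CPM in proximal libraries, against 0.751, 7.06 and 2.88 CPM in primary libraries. Cxcl2 stood at 1.65, 2.52 and 16.1 CPM in distal and 0.417, 0.357 and 1.47 CPM in proximal libraries, against 0.670, 12.1 and 5.66 CPM in primary libraries. For both ligands all 3 groups overlapped except that every distal library lay above every proximal one for Cxcl2. Cxcl3 stood at 0.225, 0.428 and 2.56 CPM in distal and 0.130, 0.0765 and 0.171 CPM in proximal libraries, against 0.295, 0.780 and 1.15 CPM in primary libraries. All 5 ELR ligands had a negative log2 fold change in metastases over primary, with both sites averaged (median -1.44). By site, all 5 were negative in proximal over primary (median -3.02). In distal over primary 3 were negative and 2, Cxcl2 and Cxcl3, were positive (median -0.07). Cxcl1, Cxcl2 and Cxcl3 changed sign in distal over primary under at least 1 alternative. In distal over proximal metastases all 5 were positive (median 1.11).

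Cxcl16 is made as a membrane-anchored ligand of Cxcr6 and is shed by the proteases Adam10 and Adam17. The gene (chromosome 11, 70453983 to 70459984) stood at 6.82, 8.47 and 10.8 CPM in distal and 7.12, 10.3 and 6.53 CPM in proximal libraries, against 10.1, 155 and 58.2 CPM in primary libraries. Primary 2 and 3 were again high, and primary 1 lay within the range of the metastases. Metastases over primary differed by -3.16 on the log2 scale (SE 0.64, edgeR adjusted p = 0.0403). Cxcl16 shares 552 bases with Zmynd15 on the other strand, and without a known strand setting their reads cannot be told apart there. Zmynd15 stood at 0.999 to 2.09 CPM in distal and 1.28 to 2.63 CPM in proximal libraries, against 2.36, 15.3 and 8.41 CPM in primary libraries. The receptor Cxcr6 stood at 0.275, 0.285 and 0.433 CPM in distal and 0.365, 0.739 and 0.318 CPM in proximal libraries, against 0.402, 0.819 and 2.04 CPM in primary libraries (log2 fold change -1.45, SE 0.52, adjusted p = 0.154 by edgeR).

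Ccl20, the ligand of Ccr6, attracts lymphocytes and dendritic cells to mucosal surfaces. It was rare everywhere: 3 counts over the distal libraries and 3 over the proximal libraries, against 68 over the primary libraries. Scaled to library size, the primary libraries held 27.5 times the distal level (exact 95% Poisson interval 9.02 to 137) and 29.1 times the proximal level (9.53 to 144), and these intervals cover counting error only. In CPM, it stood at 0, 0 and 0.0999 in distal and 0, 0.0765 and 0 in proximal libraries, against 0.804, 0.507 and 0.848 in primary libraries. Ccl20 was the only called member that separated all 6 metastases from all 3 primary tumours, including primary 1. The edgeR adjusted p was 0.0400, and its fitted log2 fold change (-4.58, SE 0.92) depends on the prior count. Ccr6, its receptor, stood at 0.0749, 0.0476 and 0.133 CPM in distal and 0.0522, 0.714 and 0.0244 CPM in proximal libraries, against 0.831, 0.195 and 0.610 CPM in primary libraries (edgeR adjusted p = 0.232).

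**Figure D2:**
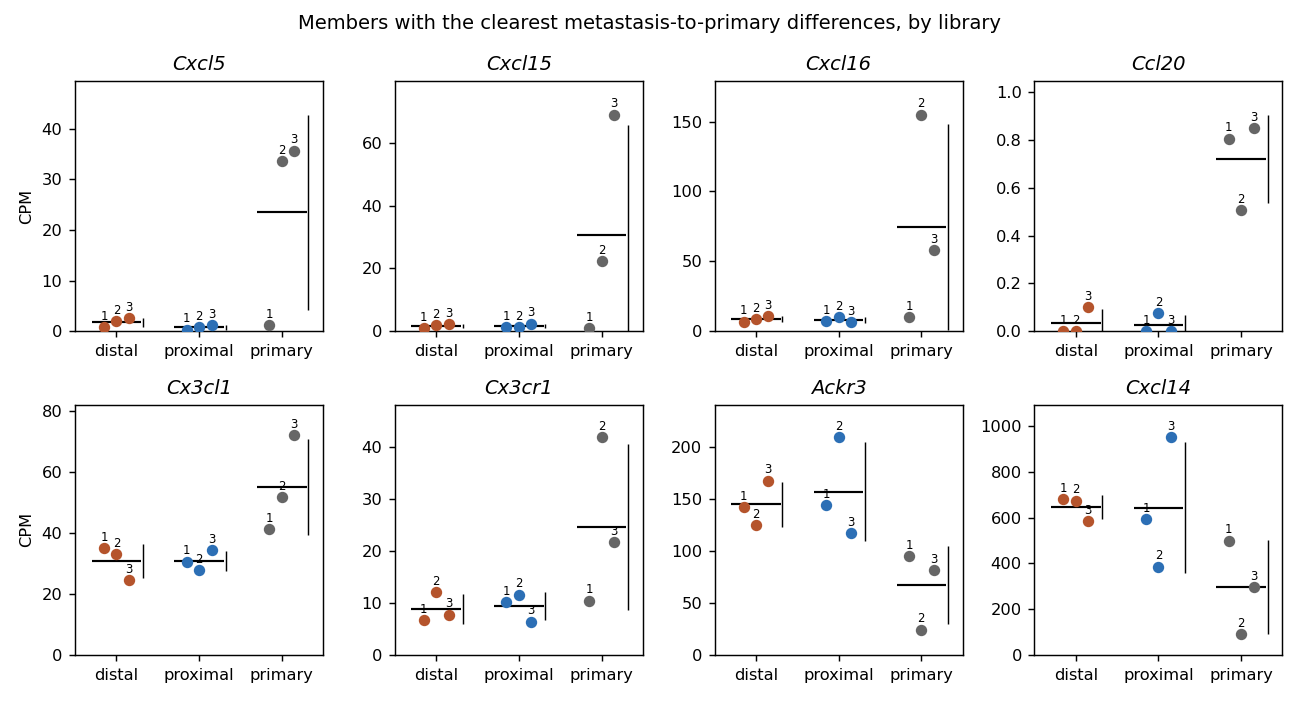
CPM (linear axes from 0) of 8 members in each library, by group (distal, proximal, primary). Points are libraries with their number, horizontal lines are group means and vertical lines are 1 SD on each side, cut at 0 (n = 3). Cxcl5, Cxcl15 and Cxcl16 are high in primary 2 and 3 but not in primary 1, Ccl20 and Cx3cl1 are higher in all 3 primary tumours, and Ackr3 is lower in all 3.

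The summed epithelial markers moved with Cxcl5, Cxcl15 and Cxcl16, though not with Ccl20 in primary 1. The sum was highest in primary 2 and 3 (12830 and 6644 CPM), while primary 1 (2818 CPM) lay within the range of the metastases (1930 to 2905 CPM). Single genes of the list did not all follow the sum. Epcam stood at 353, 226 and 380 CPM in primary 1, 2 and 3, against 163 to 310 CPM in the metastases. For Epcam, primary 2 thus lay among the metastases and primary 1 above them. Of the 10 listed genes, 3 were called lower in the metastases (Krt5, Krt14 and Cldn7) and 0 higher. The Krt5 and Krt14 calls were lost when any metastasis was left out, and that of Krt14 also without primary 2 or 3, and both were lost with limma-voom, whereas Cldn7 passed under each alternative run. Cldn7, a tight junction protein of epithelia, stood at 2.75, 3.52 and 3.16 CPM in distal and 2.35, 5.25 and 6.31 CPM in proximal libraries, against 50.5, 268 and 132 CPM in primary libraries. The part of the epithelial markers in the ligand differences was not tested.

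Cx3cl1, or fractalkine, is tethered to the membrane of endothelial and epithelial cells and binds Cx3cr1 on monocytes, macrophages and natural killer cells. It stood at 35.0, 33.2 and 24.6 CPM in distal and 30.6, 27.7 and 34.4 CPM in proximal libraries, against 41.1, 51.8 and 72.2 CPM in primary libraries. Every metastasis lay below every primary tumour, primary 1 included. The log2 fold change was -0.83 (SE 0.20), and lay just outside the call (edgeR adjusted p = 0.0603). Distal and proximal metastases both averaged 30.9 CPM, with SDs of 5.57 and 3.33 (n = 3 each). Cx3cr1 stood at 6.64, 12.0 and 7.76 CPM in distal and 10.1, 11.6 and 6.41 CPM in proximal libraries, against 10.4, 42.0 and 21.6 CPM in primary libraries (log2 fold change -1.44, SE 0.41, edgeR adjusted p = 0.0955). Here primary 1 lay among the metastases. The annotated span of Cx3cr1 overlaps Wdr48, Gorasp1, Ttc21a, Csrnp1 and Xirp1, so its counts are uncertain.

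Cxcl14 and Ackr3 ran the other way, without passing the test. Cxcl14 is a conserved ligand of skin and other epithelia whose receptor is not settled. It stood at 681, 674 and 583 CPM in distal and 592, 386 and 950 CPM in proximal libraries, against 500, 91.0 and 296 CPM in primary libraries. Primary 2 had the lowest level and primary 1 lay within the proximal range. For metastases over primary the log2 fold change was 1.12 (SE 0.51, edgeR adjusted p = 0.213). Ackr3, an atypical receptor that takes up Cxcl12, stood at 142, 125 and 168 CPM in distal and 144, 210 and 117 CPM in proximal libraries, against 94.8, 24.3 and 81.7 CPM in primary libraries. Every metastasis lay above every primary tumour, and Ackr3 was the only tested member with that pattern in the 6-against-3 comparison (2.08% of members, beside 4.22% of all tested genes). Its log2 fold change was 1.17 (SE 0.42, edgeR adjusted p = 0.15). Without primary 1 both passed, at 1.75 for Cxcl14 (edgeR adjusted p = 0.0386) and 1.53 for Ackr3 (0.0432). DESeq2, which called 14.2% of all tested genes, also called Ackr3 (adjusted p = 0.0337).

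Cxcl12, which binds Cxcr4 and Ackr3 and retains leukocytes and progenitor cells in tissue, did not pass in any comparison. It stood at 8.39, 23.2 and 17.9 CPM in distal and 7.56, 22.2 and 7.24 CPM in proximal libraries, against 19.4, 2.15 and 30.7 CPM in primary libraries. Both the lowest and the highest level were in primary tumours. Cxcr4 stood at 18.6, 18.7 and 32.9 CPM in distal and 14.2, 17.1 and 19.1 CPM in proximal libraries, against 18.4, 11.2 and 28.3 CPM in primary libraries. Its log2 fold change in metastases over primary was 0.04 (SE 0.32), and the groups overlapped.

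**Figure D3:**
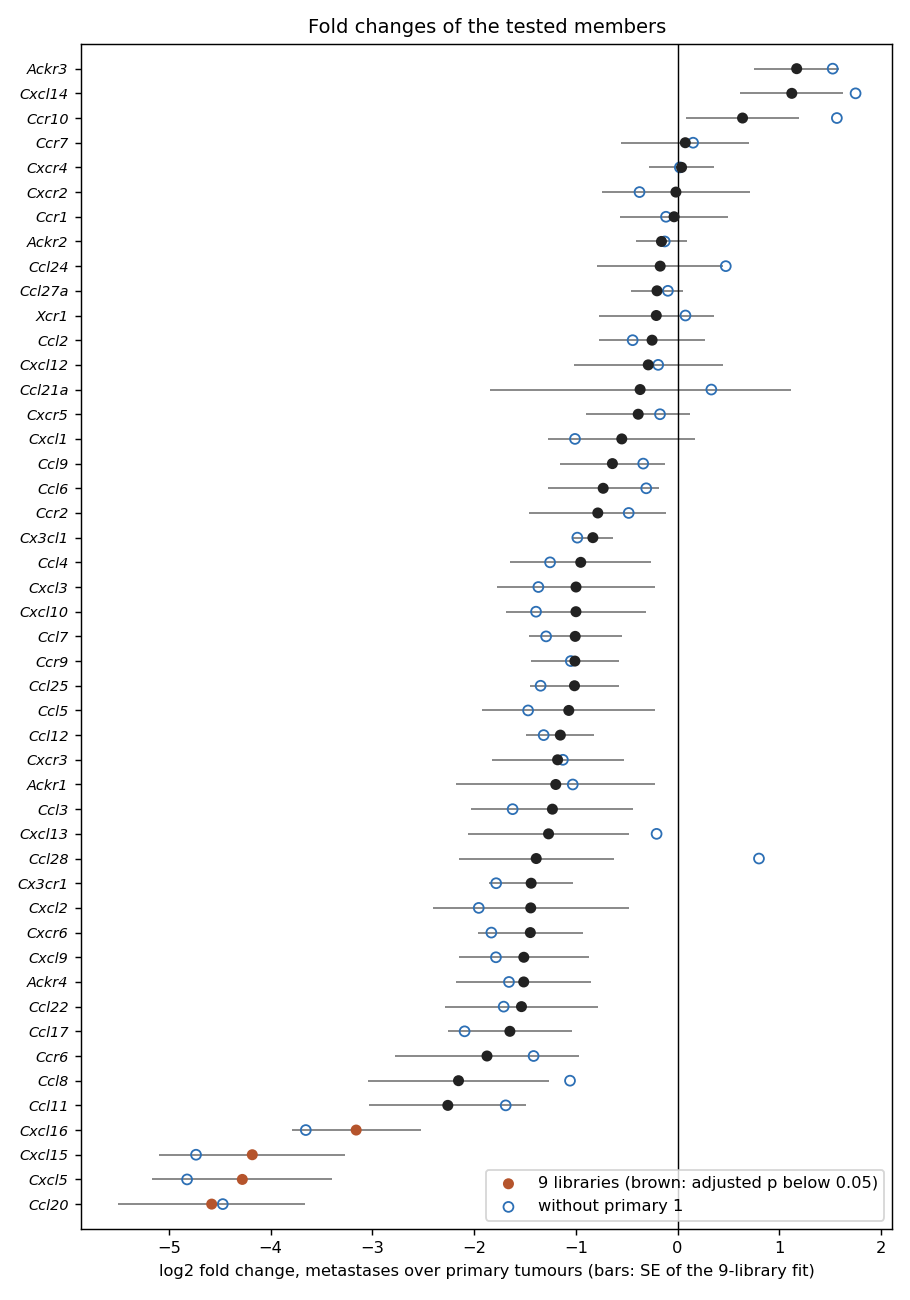
Log2 fold change of the mean of both metastatic sites over primary tumours for 47 of the 48 tested members (filled points, with 1 SE of the 9-library fit on each side; brown, adjusted p below 0.05) and the same without primary 1 (open circles). Most points lie left of 0, the 4 called ligands lie farthest left, and Ccl28 and Ccl8 shift most to the right without primary 1.

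The inflammatory CC ligands attract monocytes and other leukocytes through receptors such as Ccr1 and Ccr2. All 9 tested had a negative log2 fold change in metastases over primary (median -1.01), and 0 passed. Ccl6 and Ccl9, rodent ligands of Ccr1, had the highest mean CPM of the 9, which is not corrected for gene length (per kilobase, Ccl8 came between them). Ccl6 stood at 19.0, 14.4 and 65.8 CPM in distal and 13.7, 39.3 and 17.0 CPM in proximal libraries, against 68.6, 34.0 and 35.6 CPM in primary libraries. Ccl9 stood at 9.84, 6.99 and 29.7 CPM in distal and 6.99, 16.8 and 6.99 CPM in proximal libraries, against 26.7, 12.0 and 20.3 CPM in primary libraries. The groups overlapped for both, with distal 3 and primary 1 the 2 highest libraries. Ccl12, a mouse ligand of Ccr2, stood at 0.375, 0.761 and 0.666 CPM in distal and 0.913, 0.790 and 0.562 CPM in proximal libraries, against 1.099, 1.40 and 2.001 CPM in primary libraries. It was lower in every metastasis than in every primary tumour (log2 fold change -1.15, SE 0.34, edgeR adjusted p = 0.0979). Members lower in all 6 metastases than in all 3 primary tumours were Ccl12, Ccl20 and Cx3cl1, 6.25% of those tested, beside 5.99% of all tested genes.

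Ccl8 (chromosome 11, 82115185 to 82116799), which in mouse binds Ccr8, stood at 0.175, 0.928 and 3.60 CPM in distal and 3.00, 8.003 and 2.13 CPM in proximal libraries, against 23.8, 2.96 and 8.003 CPM in primary libraries. Primary 1 was its highest library, and the log2 fold change of -2.15 (SE 0.89) became -1.06 without it. Ccl2 and Ccl7, ligands of Ccr2, stood at 0.756 to 4.16 CPM and 0.367 to 2.16 CPM over the metastases, against 1.23 to 2.85 CPM and 0.885 to 2.14 CPM over the primary libraries. Ccl5, a ligand made by activated T cells, stood at 0.425, 1.12 and 1.60 CPM in distal and 0.522, 3.54 and 0.367 CPM in proximal libraries, against 0.885, 1.52 and 5.43 CPM in primary libraries. Its highest metastasis was proximal 2 and its highest primary tumour primary 3. Ccl3 and Ccl4, attractants of macrophages and T cells, both peaked in distal 3 (2.60 and 1.47 CPM), and otherwise stayed at or below 0.309 CPM in the metastases. In primary 1, 2 and 3 Ccl3 stood at 0.429, 0.858 and 2.31 CPM and Ccl4 at 0.349, 0.624 and 1.05 CPM.

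Among the receptors of these ligands, Ccr1 stood at 5.72, 6.66 and 23.3 CPM in distal and 3.05, 5.05 and 2.71 CPM in proximal libraries, against 5.79, 3.82 and 10.48 CPM in primary libraries. Ccr2, which recruits monocytes, stood at 2.47, 4.12 and 6.96 CPM in distal and 4.12, 6.86 and 2.08 CPM in proximal libraries, against 10.4, 1.17 and 11.3 CPM in primary libraries. Neither receptor separated metastases from primary tumours. The 11 macrophage and monocyte markers summed to 201.6 to 350.4 CPM in distal and 167.3 to 301.3 CPM in proximal libraries, against 361.9 to 725.0 CPM in primary libraries. None of the 11 markers was called in metastases against primary, although all 11 had a negative log2 fold change (median -1.13) and 8 were lower at an unadjusted p below 0.05, which 24.6% of all tested genes reached in either direction. C1qa, a complement gene of macrophages, stood at 41.6, 46.7 and 62.9 CPM in distal and 39.0, 59.6 and 33.5 CPM in proximal libraries, against 71.1, 233 and 110 CPM in primary libraries (edgeR adjusted p = 0.0560). The part of these cells in the ligand levels was not tested.

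The interferon-inducible ligands Cxcl9 and Cxcl10 attract activated T cells through Cxcr3. Cxcl9 stood at 0.225, 1.17 and 0.466 CPM in distal and 1.02, 0.765 and 0.293 CPM in proximal libraries, against 1.05, 1.05 and 3.53 CPM in primary libraries. Cxcl10 stood at 1.27, 1.142 and 3.23 CPM in distal and 1.09, 0.663 and 0.440 CPM in proximal libraries, against 0.831, 0.819 and 5.39 CPM in primary libraries. Both were highest in primary 3, and neither passed in any comparison. Cxcl10 overlaps Art3 on the other strand over its full 2252 bases, so its counts are uncertain. Cxcr3 stayed at or below 0.510 CPM in the metastases, against 0.156 to 0.983 CPM in primary libraries. Ifngr1, the ligand-binding chain of the interferon-gamma receptor, was lower in metastases. It stood at 26.6, 23.1 and 30.3 CPM in distal and 25.8, 32.9 and 21.8 CPM in proximal libraries, against 53.2, 64.1 and 109 CPM in primary libraries (log2 fold change -1.50, SE 0.24, edgeR adjusted p = 0.0236). The Ifngr1 call was lost when any metastasis or primary 3 was left out and with limma-voom (edgeR and limma adjusted p up to 0.108).

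The eotaxins act on eosinophils through Ccr3, which had too few counts to test. Ccl11 stood at 0.0250, 0.119 and 0.366 CPM in distal and 0.209, 1.73 and 1.32 CPM in proximal libraries, against 3.33, 1.01 and 1.76 CPM in primary libraries. All distal libraries lay below all primary ones, while proximal 2 and 3 lay within the primary range. Distal over primary, the log2 fold change was -3.61 (SE 1.04, edgeR adjusted p = 0.171). Ccl24 stayed between 0.122 and 0.799 CPM in all libraries.

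Several lymphoid and mucosal CC ligands rested on 1 library. All 7 tested had a negative log2 fold change in metastases over primary (median -1.39), and only Ccl20 passed. Ccl28, a mucosal ligand of Ccr10, reached 13.8 CPM in primary 1 and 0.702 to 2.56 CPM elsewhere, and its log2 fold change of -1.39 (SE 0.76) became 0.80 without primary 1. Ccl25, the ligand of Ccr9, was highest in primary 2 at 4.76 CPM and otherwise lay between 0.949 and 1.73 CPM. Ccl17 and Ccl22 share the receptor Ccr4, which had too few counts to test. Ccl22 stood at 0.04995, 0.167 and 0.167 CPM in distal and 0.130, 1.53 and 0.196 CPM in proximal libraries, against 0.590, 0.858 and 1.02 CPM in primary libraries, with proximal 2 the highest of all. Ccl17 was highest in primary 2 at 1.29 CPM. Ccl27a lay between 1.33 and 2.15 CPM in all libraries. Ccl27a has a near-identical copy, Ccl27b, so its counts are uncertain.

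The organising ligands of lymphoid tissue peaked in proximal 2 and in primary 1 and 3. Ccl21a, which guides Ccr7-positive lymphocytes and dendritic cells into lymph nodes, stood at 0, 1.67 and 1.03 CPM in distal and 0.157, 7.01 and 0.171 CPM in proximal libraries, against 3.35, 0.195 and 2.17 CPM in primary libraries. Near-identical copies make its counts uncertain. Ccr7 stood at 0.624, 0.761 and 1.53 CPM in distal and 0.913, 4.05 and 0.758 CPM in proximal libraries, against 1.39, 0.702 and 1.76 CPM in primary libraries. Cxcl13, the B cell attractant of lymphoid follicles, stood at 2.97, 2.90 and 4.93 CPM in distal and 1.28, 7.65 and 2.76 CPM in proximal libraries, against 18.3, 0.975 and 7.73 CPM in primary libraries. Its receptor Cxcr5 stood at 0.949, 0.928 and 1.13 CPM in distal and 0.835, 3.13 and 1.15 CPM in proximal libraries, against 2.15, 0.702 and 2.27 CPM in primary libraries. All 4 genes had their highest metastatic level in proximal 2, and none passed in any comparison. B and plasma cell markers summed to 3.871, 19.96 and 23.08 CPM in distal and 6.207, 120.6 and 4.279 CPM in proximal libraries, against 100.5, 6.434 and 123.1 CPM in primary libraries. The 3 highest libraries, proximal 2, primary 1 and primary 3, were the same for Ccl21a, Cxcl13 and Cxcr5. For Ccr7, distal 3 lay above primary 1. T and natural killer cell markers summed to 2.073, 4.163 and 5.361 CPM in distal and 3.26, 21.61 and 2.029 CPM in proximal libraries, against 7.24, 13.96 and 33.88 CPM in primary libraries. Their part in these levels was not tested.

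**Figure D4:**
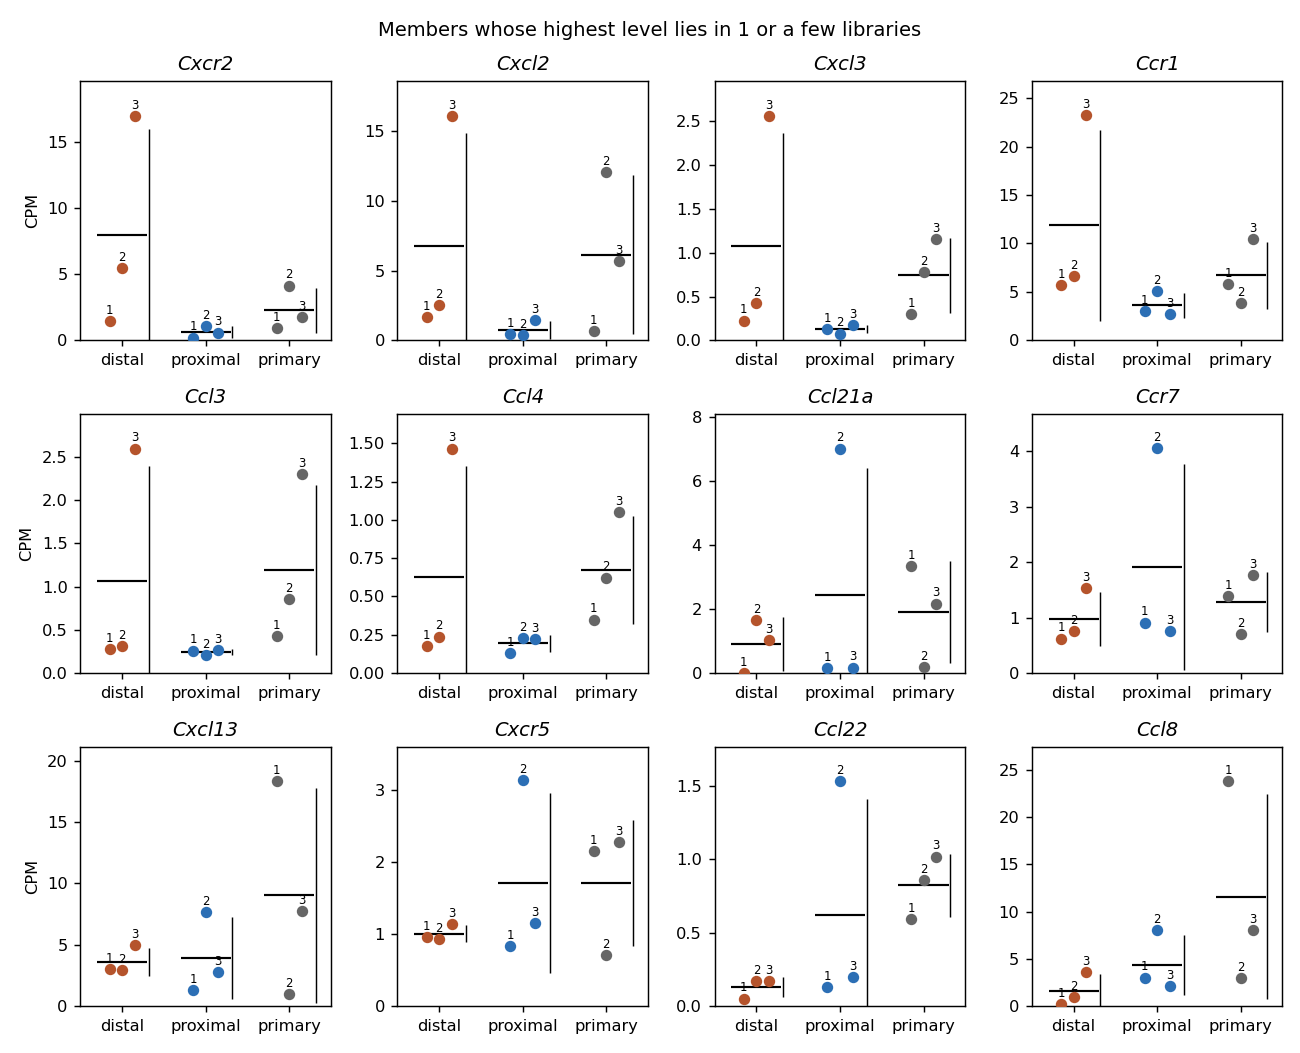
CPM (linear axes from 0) of 12 members in each library, by group (distal, proximal, primary). Points are libraries with their number, horizontal lines are group means and vertical lines are 1 SD on each side, cut at 0 (n = 3). Distal 3 is the highest library for Cxcr2, Cxcl2, Cxcl3, Ccr1, Ccl3 and Ccl4, proximal 2 for Ccl21a, Ccr7, Cxcr5 and Ccl22, and primary 1 for Cxcl13 and Ccl8.

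Distal were compared with proximal metastases to ask whether the site changed the chemokine profile. None of the 48 members passed edgeR's test, nor did any of the 18204 genes (0%). At an unadjusted p below 0.05 there were 6 members (12.5%), beside 2.06% of all tested genes. DESeq2 called 1 member, Cxcr2, beside 0.456% of all tested genes, and limma-voom called 0. The median log2 fold change of the members was 0.05, against -0.01 for all tested genes. It was positive in 27 and negative in 21, beside 47.2% and 52.8% of all tested genes. Groups did not overlap for 9 members, 8 higher and 1 lower in distal metastases, beside 4.03% and 3.6% of all tested genes.

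Cxcr2, the neutrophil receptor of the ELR ligands, had the lowest p of the members. It stood at 1.45, 5.42 and 16.9 CPM in distal libraries, against 0.209, 1.07 and 0.587 CPM in proximal libraries, and at 0.912, 4.13 and 1.73 CPM in primary libraries. Every distal library lay above every proximal one, though distal 3 was several times higher than distal 1 and 2. The log2 fold change of distal over proximal was 3.66 (SE 1.04, edgeR adjusted p = 1.0, DESeq2 adjusted p = 0.0259), and 2.46 (SE 0.91) without distal 3. The other members separated upward were Cxcl2, Cxcl3, Ccl3, Ccl7, Cxcl10, Ccr1 and Ackr2, and Ackr4 was separated downward. Without distal 3 the log2 fold changes were 1.48 for Cxcl2, 1.35 for Cxcl3 and 0.78 for Ccr1, against 3.17, 3.04 and 1.72 with it.

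Distal 3 had the highest level of 12 tested members, Ccl2, Ccl3, Ccl4, Ccl7, Ccl9, Ccl24, Cxcl2, Cxcl3, Ccr1, Ccr10, Cxcr2 and Cxcr4. Neutrophil markers summed to 44.11, 145.2 and 612.8 CPM in distal and 19.59, 66.04 and 29.05 CPM in proximal libraries, against 36.95, 704.4 and 534.6 CPM in primary libraries. In distal 3 the sum was led by S100a9 (247 CPM) and S100a8 (192 CPM), calcium-binding proteins of neutrophils. In primary 2 and 3 it was led by Ltf, or lactoferrin, a secretory protein of neutrophils and glandular epithelia, at 607 and 481 CPM, against 1.70 to 14.2 CPM in the metastases. Retnlg (53.2 CPM), Csf3r (39.7 CPM), Ngp (21.6 CPM), Mmp8 (17.9 CPM), Camp (3.0 CPM) and Mpo (1.7 CPM) were also highest in distal 3. In distal over proximal metastases, 9 of the 10 tested neutrophil markers had a positive and 1 a negative log2 fold change (median 3.25). Of the 10, 0 were called by edgeR and 6 were higher at an unadjusted p below 0.05, beside 2.06% of all tested genes. Ltf, Ly6g and Mmp9 peaked in other libraries. Ly6g stood at 0.175, 0.167 and 1.37 CPM in distal and 0.0261, 0.051 and 0.0244 CPM in proximal libraries, against 9.09, 0.234 and 0.0339 CPM in primary libraries. Mmp9 was highest in proximal 2 (43.6 CPM, beside 20.5 CPM in distal 3). Elane was scarce and did not exceed 0.433 CPM, its level in distal 3. The platelet chemokines Pf4 and Ppbp, which the symbol rule does not take, reached 27.0 and 28.8 CPM in distal 3, against at most 5.38 and 5.59 CPM in any other library. Red blood cell genes summed to 436.7, 1683 and 5793 CPM in distal libraries, against 201.5 to 298.6 CPM in proximal libraries. In primary 1, 2 and 3 they summed to 525.7, 212.8 and 257.1 CPM, so primary 1 lay above distal 1. The part of blood cells in the distal levels was not tested.

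**Figure D5:**
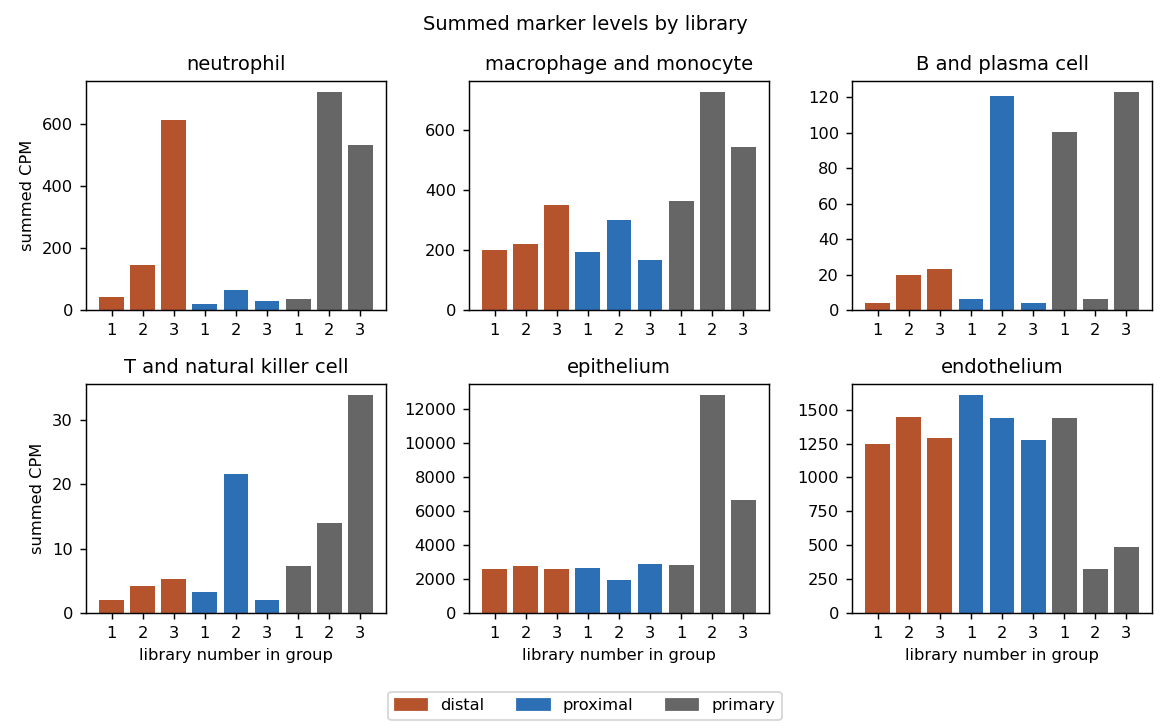
Summed CPM of 6 marker lists (bars from 0, 1 per library; distal, proximal, primary). Neutrophil markers are high in distal 3 and in primary 2 and 3, B and plasma cell markers in proximal 2 and primary 1 and 3, and epithelial markers in primary 2 and 3. Ltf, also a product of glandular epithelia, made up most of the neutrophil bar in primary 2 and 3 (607 and 481 CPM), but not in distal 3 (14.2 CPM). Prox1 made up most of the endothelial bar in the metastases (1070 to 1480 CPM) and in primary 1 (1200 CPM), but not in primary 2 and 3 (44.9 and 242 CPM).

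The remaining atypical receptors were scarce. Ackr1, which binds many inflammatory chemokines on venules and red blood cells, stood at 0.04995, 0.381 and 0.833 CPM in distal and 0.287, 2.29 and 0.391 CPM in proximal libraries, against 1.77, 0.195 and 2.44 CPM in primary libraries. Ackr2, a scavenger of inflammatory CC chemokines, stood at 1.32, 1.83 and 1.70 CPM in distal and 0.913, 1.22 and 1.002 CPM in proximal libraries, against 1.48, 1.56 and 1.32 CPM in primary libraries. Every distal library was above every proximal one, by a small margin (log2 fold change 0.63, SE 0.29, edgeR adjusted p = 1.0). Ackr4, a scavenger of Ccl19, Ccl21 and Ccl25, stood at 0.225, 0.285 and 0.300 CPM in distal and 0.626, 1.38 and 0.758 CPM in proximal libraries, against 1.099, 0.195 and 2.98 CPM in primary libraries. It overlaps Acad11 on the other strand, so its counts are uncertain. Ccr9, Ccr10 and Xcr1 did not exceed 0.746 CPM in any library.

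Genes around the chemokines were taken from lists of the wider pathway. Of 28 chemokine signalling genes (G proteins, arrestins, kinases and regulators) 0 were called in metastases against primary (9 lower and 1 higher at an unadjusted p below 0.05, beside 24.6% of all tested genes in both directions, median -0.45). Gnai2, the inhibitory G protein subunit through which chemokine receptors signal, stood at 478 to 532 CPM in distal and 464 to 498 CPM in proximal libraries, against 441 to 654 CPM in primary libraries. Of 22 tested inducers of chemokines (cytokines, their receptors and NF-kB genes), 1 was called lower, Ifngr1, and 0 higher, with a median of -0.67. Of 18 tested genes of chemokine presentation and processing, 1 was called lower, Dpp4, and 0 higher, with a median of 0.09. Dpp4, a protease that clips the first residues of several chemokines, stood at 5.22, 4.42 and 7.59 CPM in distal and 11.7, 16.5 and 5.09 CPM in proximal libraries, against 10.6, 155 and 155 CPM in primary libraries (log2 fold change -3.74, SE 0.71, edgeR adjusted p = 0.0331). The Dpp4 call was lost with limma-voom and when any library other than primary 1 was left out (limma and edgeR adjusted p up to 0.167). Primary 1 lay within the proximal range of Dpp4, whereas every distal library lay below every primary one. Adam10, a sheddase of Cxcl16 and Cx3cl1, stood at 948 to 1070 CPM in distal and 926 to 1110 CPM in proximal libraries, against 910, 249 and 522 CPM in primary libraries (edgeR adjusted p = 0.196). Of 8 chemokine-related genes outside the symbol rule (Mif, Cmklr1, Pf4, Rarres2, Ppbp, Ccrl2, Gpr35 and Cklf), 0 were called.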

How the data were processed

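Bulk RNA sequencing was analysed in 9 libraries, 3 per group, with groups taken from the tissue labels. Library numbers only name libraries. The deposited files hold whole-number read counts per Ensembl gene. The submitters' processing notes name DESeq2 1.14.1, HTSeq 0.6.0, TopHat2 2.1.0, FastQC 0.11.4, R 3.2.3 and Bowtie2 2.2.6.0, with the build GRCm38.p3. The sources used here give neither the strand setting nor the annotation release, so counts of overlapping genes and near-identical copies are uncertain. A second engineered allele named in the labels, 1 receptor and 1 macrophage marker are not reported here.

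From the deposited counts, CPM values were computed here with TMM-scaled library totals. A gene at 3 counts lies at 0.0714 to 0.117 CPM, depending on the library. Symbols matched 46488 of 47069 identifiers, and positions and exon lengths came from GENCODE M21. Genes passing filterByExpr (minimum count 10, minimum total 15) were tested with edgeR 4.0.16 in R 4.3.3 (quasi-likelihood F-test, robust shrinkage, 6 residual degrees of freedom), with group means as the only terms and Benjamini-Hochberg adjustment over all 18204 tested genes. An SE is the size of the log2 fold change over the root of F. The 4 comparisons set each site against primary, distal against proximal, and the average of the sites against primary. Although samples were matched within 3 mice, all 9 libraries entered the test as independent. The fit takes 1 dispersion per gene for all groups. The procedure was tested on simulated data with the same dispersion in all genes and groups. That test therefore does not cover the wider spread among the primary tumours.

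Members and lists were chosen with earlier results of these data known. The naming rule took every called member, every member with a group mean of at least 2 CPM, and their tested receptors and ligands. From the marker and pathway lists it took the called genes and up to 3 of the most abundant, but not all of these were described. Ltf, Itgax, H2-Ab1, Kit, Krt19, Svs4, Svs5 and Svs6 were also called lower in metastases against primary. Of these, only Ltf is described above. Other genes named were chosen after their values were seen. Mmp9 and Elane stand in 2 lists, and Ccr7 and Xcr1 are both members and dendritic cell markers. The part of the rule that would name genes by correlation over the libraries was not used, because the libraries fall into separate clusters, and the planned reading of protein sequence classes was not run. Promoter windows came from the RefSeq table of GRCm38.p6.

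Alternatives were DESeq2 1.42.0, limma-voom (limma 3.58.1) with and without sample quality weights, library totals alone, median-ratio size factors, no filter, a filter of 1 CPM in 3 libraries, fits of only the compared groups, fits with no robust shrinkage, removal of CT010467.1, Lars2 and 37 mitochondrial genes, and fits without 1 library at a time.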

Additional observations from a re-analysis of the deposited data

How the results depend on the processing

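None of the 4 called members changed sign in metastases over primary under any alternative tried. Of the 48 tested members, 14 changed sign under at least 1 alternative in metastases over primary, 15 in distal and 11 in proximal metastases over primary, and 19 in distal over proximal metastases; none of them had passed the test. The other scalings changed the sign of 2 members in metastases over primary, Ccr1 and Cxcr2. Of the log2 fold changes given in the report, 3 changed sign. Cxcr4 in metastases over primary reached -0.44 with sample quality weights and -0.24 to 0.43 with a library left out. Ccl28 in the same comparison ranged from -1.90 to 0.80 with a library left out. Cxcl15 in distal over proximal metastases ranged from -0.067 to 0.52 with a library left out. No paired analysis was possible because the labels do not say which samples share a mouse. The members called in metastases against primary (4 as reported) numbered 8 with DESeq2, 1 with limma-voom and 8 with sample quality weights. The 8 with DESeq2 did not include Ccl20, to which it gave no adjusted p. With library totals alone 3 members were called, without Cxcl15. The filter of 1 CPM in 3 libraries gave 2, and Ccl20 was not tested under it. The members called in this comparison numbered 0 to 13 when a library was left out, 13 without primary 1 and 0 without any other. In distal against primary (0) they numbered 7 with DESeq2, 8 with sample quality weights and 0 to 10 with a library left out. In proximal against primary (0) the same settings gave 4, 5 and 0 to 8. In distal against proximal (0), DESeq2 called 1. The higher counts with a library left out came without primary 1, whose quality weight was 0.175, beside 0.0843 for primary 2 and 1.06 to 2.92 for the others. The cause of these changes was not tested.

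All called genes in metastases against primary (676) numbered 2590 with DESeq2, 97 with limma-voom, 3871 with sample quality weights and 22 to 6616 with a library left out. In distal against primary (16) they numbered 10 with library totals alone, 1444 with DESeq2, 1 with limma-voom, 3127 with sample quality weights, 0 in the compared groups alone and 0 to 5203 with a library left out. In proximal against primary (9) they numbered 15 with median-ratio size factors, 1491 with DESeq2, 1 with limma-voom, 3607 with sample quality weights, 26 with no filter, 23 with the filter of 1 CPM in 3 libraries, 22 with no robust shrinkage, 0 in the compared groups alone and 0 to 5447 with a library left out. In distal against proximal (0) they numbered 83 with DESeq2 and 0 to 38 with a library left out, 38 of them without distal 1.

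Low counts limit Ccl20, Ccr6, Cxcr3, Xcr1 and most lymphoid ligands, where a few reads move the CPM. The 11 members outside the test were not compared.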
